A study of Homo sapiens with 10 samples.

Results

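The 10 genes described here are transcription factors and partner proteins that define or sustain subtypes of T-cell acute lymphoblastic leukaemia (T-ALL). They are LMO2, LMO1, TAL1, LYL1, LDB1, TLX1, TLX3, GATA3, MYB and HHEX. They were given as a list of names and found by matching versioned Ensembl IDs to gene symbols. All 10 were found among 55889 gene IDs. Their values were read in 4 groups of libraries from the human T-ALL line KOPT-K1: silvestrol footprints (2 libraries), DMSO footprints (2), silvestrol RNA (3) and DMSO RNA (3). Silvestrol, an inhibitor of the RNA helicase eIF4A, was given at 25 nM for 45 minutes, and DMSO is its solvent. Footprints are the RNA fragments that ribosomes protect, and RNA libraries were made from total RNA. All values come from 1 cell line, and nothing in the sources used here says whether the replicates were separate cultures, so p-values measure only the spread between libraries.

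LMO2 and its paralog LMO1 are LIM-domain proteins that do not bind DNA themselves. LDB1 dimerises and joins an LMO protein to a DNA-binding pair formed by TAL1 or LYL1 with an E protein, and to a GATA factor, so that 1 complex holds several DNA contacts. In T-ALL, chromosome rearrangements or enhancer mutations switch on TAL1, LMO2, LMO1, TLX1 or TLX3 in cells that would otherwise silence them. MYB and GATA3 are factors of normal T-cell development that T-ALL cells also use, and HHEX is a homeobox gene reported as a target of LMO2.

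The title of the series names RNA G-quadruplexes, folds of G-rich RNA that eIF4A may have to unwind. The 5' untranslated regions (UTRs) of the members were therefore searched on the sense strand, in transcripts of GENCODE release 29 (build GRCh38), for a pair of motifs. The first was a run of 4 GGC or 4 CGG units, and the second was 4 runs of at least 3 G with 1 to 7 bases between runs. The motifs can overlap each other. A match describes letters and is not a measured fold. In the 1 main transcript chosen per gene (principal, then basic, then longest coding sequence), LMO2 was the only member with the repeat, and LDB1 and LYL1 were the only ones with the G runs. A second annotated 5' UTR of LMO2 held the G runs and a second one of LDB1 held the repeat. GATA3 (5 annotated 5' UTRs), MYB (9), TAL1 (2), LMO1 (3), TLX1 (2), TLX3 (1) and HHEX (3) had neither motif in any. The matching sites are shown, 5' to 3', because they are the features of these mRNAs that the study's question turns on, and capitals mark the motif. LMO2 is on chromosome 11, LDB1 on chromosome 10 and LYL1 on chromosome 19.

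LMO2 repeat: ggcgaCGGCGGCGGCGGCGGCGGCgcccga
LMO2 G runs, other transcript: cgaGGGGCTCCGGGCGGCCGGGCGGGcgca
LDB1 G runs: gtggcctGGGGAGGGCGGGCGGGctgctcg
LDB1 repeat, other transcript: ggccgcgGGCGGCGGCGGCGGCtcatgccc
LYL1 G runs: cGGGCCGCCGGGGGCGGGGAGAAGGCGGGc

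The LMO2 repeat window ends 90 nt before the start codon in a 5' UTR of 430 nt with 79.8% GC. Among 1258 genes whose 5' UTR length was within 10% of that, 5.01% held the repeat. The LDB1 G-run window lies far from the start codon, 483 nt away in a 5' UTR of 624 nt, and 22.2% of 634 genes of similar 5' UTR length held such runs. In LYL1 the 5' UTR was 361 nt, and 15.6% of 1375 genes of similar length held the G runs. Over all 18219 genes with an annotated 5' UTR, 3.52% held the repeat and 9.63% the G runs. The 5' UTR of MYB, at 186 nt and 75.8% GC, was nearly as GC-rich as that of LMO2 but matched neither motif.

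The deposited values are RPKM, read counts scaled to gene length and to the library total. RNA levels of genes can thus be set beside each other. Low footprint values come to whole reads by the length of all exons, whereas ribosomes mostly cover the coding sequence. The coding sequence was 474 nt against 3109 nt of exons in LMO2, and 1920 nt against 5493 nt in MYB. Footprint levels and footprint to RNA ratios of different genes therefore also depend on this share, which was not corrected. The log2 changes with treatment compare a gene with itself. A member was counted as expressed at a mean of at least 1 RPKM. By that threshold 5 of the 10 members were expressed in RNA (MYB, LDB1, LMO2, GATA3 and TAL1) and 4 in footprints, TAL1 falling below. The counts were again 5 and 4 with any 1 library left out, and 5 in footprints at a threshold of 0.5 RPKM. KOPT-K1 therefore had LMO2 and its bridging partner LDB1 at high levels, TAL1 at a low level, and almost no LMO1, LYL1, TLX1, TLX3 or HHEX. Of the T-cell markers checked, 14 of 14 matched were at 1 RPKM or more in RNA. The same held for 2 of 6 B-cell markers (CD79A and CD79B), and for 0 of 6 myeloid, 0 of 6 erythroid, 0 of 2 megakaryocyte and 0 of 3 matched stromal markers.

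**Figure D1:**
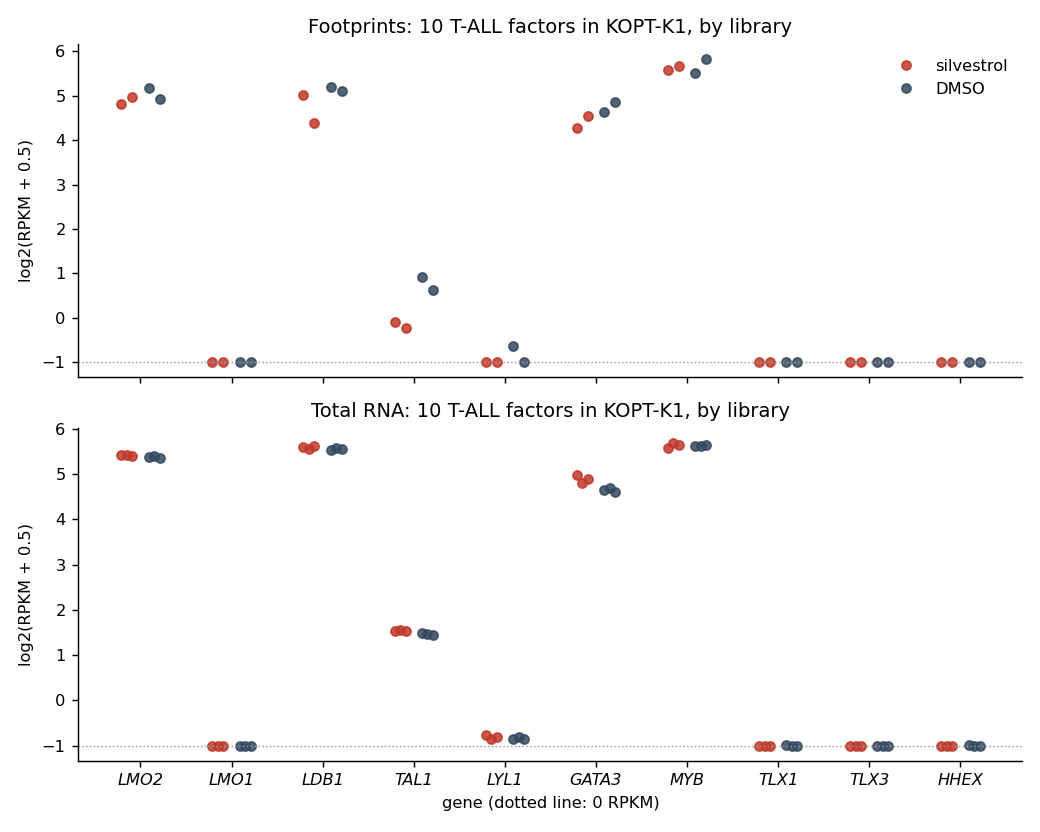
Levels of the 10 members as log2(RPKM + 0.5), footprints above and RNA below, with 1 point per library, silvestrol left of DMSO for each gene and a dotted line at 0 RPKM. LMO2, LDB1, GATA3 and MYB stand together near 5 on this scale, TAL1 lies between them and the dotted line, and the other 5 genes lie on or next to it.

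In RNA the order of the mean levels over 6 libraries was MYB (49.0 RPKM), LDB1 (47.1), LMO2 (41.4), GATA3 (26.9), TAL1 (2.35) and LYL1 (0.0659). Among 19116 protein-coding genes MYB ranked 1086, LDB1 1139, LMO2 1339, GATA3 2094 and TAL1 8722. MYB (46.8 to 51.2 RPKM) and LDB1 (45.6 to 48.9 RPKM) overlapped across libraries, so their order is within the spread. Every LDB1 library was above every LMO2 library (40.3 to 42.5 RPKM), and LMO2, GATA3 and TAL1 were likewise separated from each other.

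In footprint RPKM MYB was again highest, with a mean of 49.7 RPKM over 4 libraries. LMO2 (31.1), LDB1 (30.6) and GATA3 (23.7) followed, and their ranges overlapped, at 27.6 to 35.9, 20.3 to 36.1 and 18.8 to 28.7 RPKM. These 3 genes are thus not ordered by footprint RPKM. The coding share of the exons differs between members. The order in RPKM, with MYB first, is therefore not one of ribosomes per coding length. TAL1 footprints averaged 0.807 RPKM.

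Of the members with almost no RNA, LMO1, LYL1, TLX1 and TLX3 are subtype factors of T-ALL, and HHEX is the reported target of LMO2. LMO1 and TLX3 were listed at 0 in all 10 libraries. TLX1 and HHEX were each listed above 0 in 1 library, DMSO RNA replicate 1, at 0.0027 and 0.0025 RPKM, the value of about 1 read. LYL1, the closest relative of TAL1 among the members, had 0.0911, 0.0558 and 0.0679 RPKM in the silvestrol RNA libraries, against 0.0575, 0.071 and 0.0519 RPKM in the DMSO RNA libraries. Its footprints were listed at 0 in both silvestrol libraries, against 0.141 and 0 RPKM in the DMSO libraries, where 0.141 RPKM stands for an estimated 1 read. The LYL1 RNA values of the treatments overlap, and its footprints were too few to compare.

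The translational efficiency of a gene is its footprint level relative to its RNA level. Under DMSO the ratio of mean footprint to mean RNA RPKM was 1.08 for GATA3, 1.04 for MYB, 0.806 for LMO2 and 0.757 for LDB1, against a median of 0.740 over 10297 tested genes. GATA3 and MYB were at percentiles 75.2 and 72.9 of those genes, and LMO2 and LDB1 at 56.4 and 51.8. The places of different genes also depend on the coding share of their exons, so they do not rank translation alone. Under silvestrol the ratio was 0.989 for MYB, 0.713 for GATA3, 0.695 for LMO2 and 0.543 for LDB1, against a median of 0.694. MYB stood at percentile 73.0, next to its place under DMSO, whereas GATA3 stood at 51.9, LMO2 at 50 and LDB1 at 34.0.

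**Figure D2:**
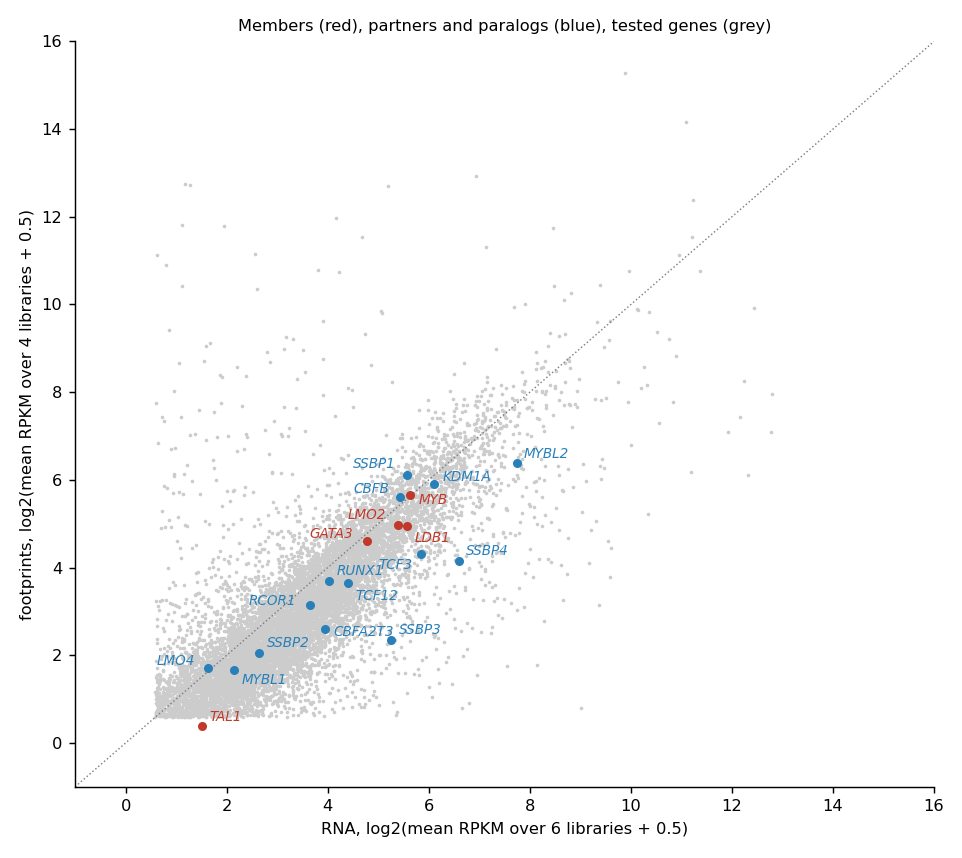
Mean footprint level against mean RNA level, both as log2(RPKM + 0.5), for the tested genes (grey), the expressed members (red) and tested partners and paralogs (blue), with a dotted line where the levels are equal. MYB lies on that line, LMO2 and LDB1 lie slightly below it, and SSBP3 and SSBP4 lie far below it. The distance of a gene from the line also depends on the coding share of its exons.

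Changes were tested on log2(RPKM + 0.5) in genes with a mean of at least 1 RPKM in both assays, 10297 genes in all, and given as silvestrol over DMSO. Only 4 of the 10 members passed this filter, LMO2, LDB1, GATA3 and MYB. TAL1 missed it in footprints. RPKM is scaled to each library, so every change is relative to other genes. In such bulk samples fewer cells and less RNA per cell cannot be told apart, and a loss of translation shared by all genes would not be seen. None of the 4 was called at an adjusted p under 0.05 in translational efficiency, footprints or RNA (limma, Benjamini-Hochberg over all genes tested). At an unadjusted p under 0.05 there was 1 of the 4 in translational efficiency (LDB1), 0 in footprints and 1 in RNA (GATA3).

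Calls were rare over all genes as well. In translational efficiency 0.107% of genes were called and 7.38% had an unadjusted p under 0.05. In footprints these shares were 0.0486% and 6.98%, and in RNA 0.282% and 9.23%. The members' counts are therefore read against a background in which hardly any gene was called. Footprints were the limiting assay, since the replicate SD of log2 values had a median over genes of 0.193 in silvestrol and 0.175 in DMSO footprints, against 0.0471 in silvestrol and 0.0391 in DMSO RNA.

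**Figure D3:**
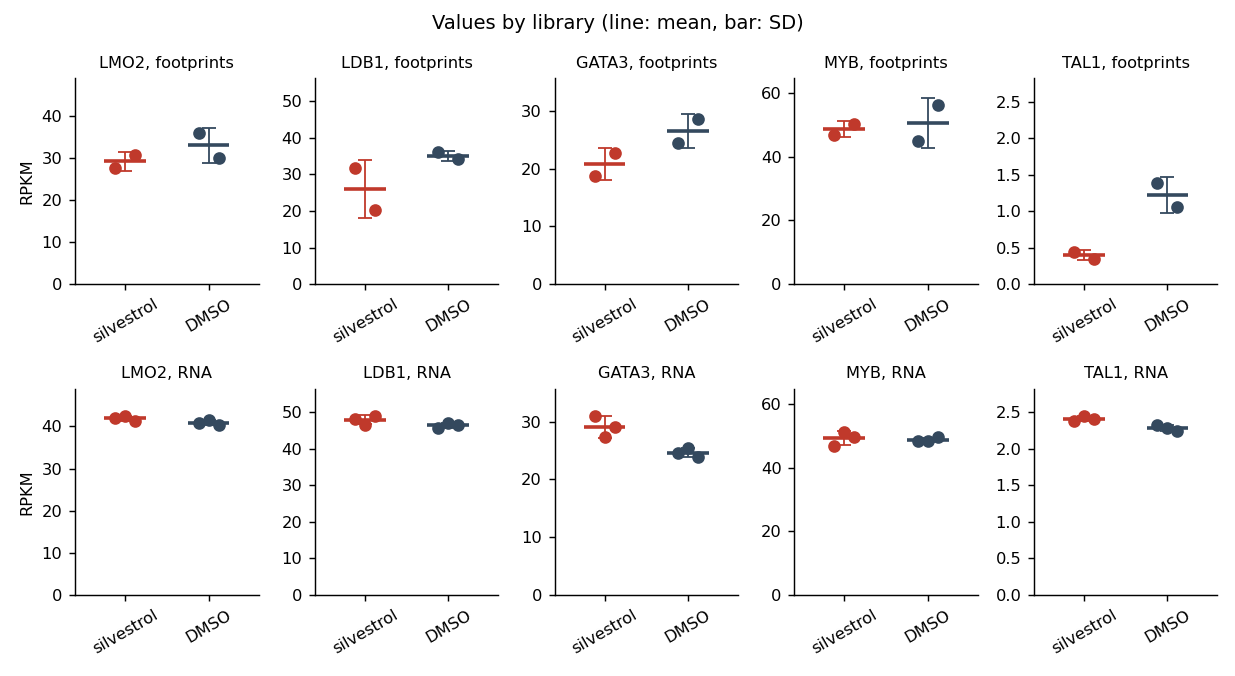
RPKM of the 5 expressed members in each library, footprints above and RNA below, silvestrol left of DMSO, with the mean as a line, the SD as a bar and axes that start at 0. GATA3 and TAL1 RNA are higher in every silvestrol library, and LDB1, GATA3 and TAL1 footprints are lower in both silvestrol libraries. Such separations held for 8.97% of tested genes in RNA and 25.2% in footprints. The MYB groups overlap in both assays.

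LMO2, an oncogene of the complex, had 27.6 and 30.7 RPKM in the silvestrol footprint libraries, against 35.9 and 30 RPKM in the DMSO footprint libraries. The groups overlap, since DMSO replicate 2 lies below silvestrol replicate 2. LMO2 RNA was 42.0, 42.5 and 41.4 RPKM in silvestrol libraries, against 40.8, 41.6 and 40.3 RPKM in DMSO libraries, and these overlap too. The log2 change in translational efficiency was -0.21 (SE 0.18, 95% interval -0.61 to 0.19, limma adjusted p = 0.871). In footprints the change was -0.17 (SE 0.16, limma adjusted p = 0.830) and in RNA 0.04 (SE 0.03, limma adjusted p = 0.815). With 1 footprint library left out, the change in translational efficiency ran between -0.33 without DMSO replicate 2 and -0.08 without DMSO replicate 1, and that in footprints between -0.30 and -0.04 without the same libraries. The interval in translational efficiency holds no change, a loss and a smaller gain of ribosomes relative to other genes. No change of LMO2 was thus detectable with these libraries.

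LDB1, the dimerising adaptor that LMO2 binds, had 31.7 and 20.3 RPKM in silvestrol footprints, against 36.1 and 34.1 RPKM in DMSO footprints. Both silvestrol libraries lie below both DMSO libraries, as in 25.2% of tested genes, and the silvestrol pair is far apart. In RNA it had 48.2, 46.5 and 48.9 RPKM in silvestrol, against 45.6, 47.0 and 46.5 RPKM in DMSO, with overlap. The log2 change in translational efficiency was -0.50 (SE 0.23, 95% interval -1 to -0.01, unadjusted p = 0.0473, limma adjusted p = 0.671). The footprint change was -0.46 (SE 0.23, limma adjusted p = 0.738). The size rests on 1 library: the translational efficiency change was -0.82 without silvestrol footprint replicate 1 and -0.19 without silvestrol footprint replicate 2.

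GATA3, the zinc finger factor of T-cell commitment that can fill the GATA position of the complex, had the largest change of the tested members in RNA. Its RNA was 31.0, 27.3 and 29 RPKM in silvestrol libraries, against 24.6, 25.4 and 23.8 RPKM in DMSO libraries. Every silvestrol library is above every DMSO library, which held for 8.97% of tested genes. The log2 change in RNA was 0.24 (SE 0.04, unadjusted p = 3.2e-04, limma adjusted p = 0.0766), higher than in 99.5% of tested genes, but not called. It was called when only genes of at least 5 RPKM were tested (limma adjusted p = 0.0399), in a fit over all 10 libraries (0.0317) and without silvestrol RNA replicate 2 (0.0324). The range over all alternatives for this value is given with the dependence on processing.

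GATA3 footprints ran the other way. They were 18.8 and 22.7 RPKM in silvestrol, against 24.5 and 28.7 RPKM in DMSO, so both silvestrol libraries are below both DMSO libraries, as in 25.2% of tested genes. The log2 change in footprints was -0.35 (SE 0.18, limma adjusted p = 0.738). It was -0.22 without silvestrol footprint replicate 1 and -0.49 without silvestrol footprint replicate 2. In translational efficiency it was -0.59 (SE 0.30, 95% interval -1.25 to 0.07, limma adjusted p = 0.705), a value lower than in all but 8.82% of tested genes and not called.

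MYB, the proto-oncogenic factor that binds the enhancers of many T-ALL genes, was nearly level. It had 47.0 and 50.4 RPKM in silvestrol footprints, against 45.1 and 56.2 RPKM in DMSO footprints, and both silvestrol values lie between the DMSO values. Its RNA was 46.8, 51.2 and 49.7 RPKM in silvestrol, against 48.3, 48.4 and 49.5 RPKM in DMSO. The log2 change in translational efficiency was -0.06 (SE 0.23, 95% interval -0.57 to 0.45, limma adjusted p = 0.981), in footprints -0.05 and in RNA 0.01. The first 2 turned positive with median scaling, at 0.0021 and 0.0027, so no direction is given for MYB.

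TAL1, the basic helix-loop-helix oncogene of the most common T-ALL subtype, was present at a low level and is described here with no test in the main fit. Its footprints were 0.442 and 0.345 RPKM in silvestrol, against 1.39 and 1.05 RPKM in DMSO. The values stand for an estimated 5.99 and 4 reads in silvestrol, against 18.0 and 9.94 reads in DMSO, by the exon length in GENCODE release 29. Both silvestrol libraries lie below both DMSO libraries, as in 25.2% of tested genes. TAL1 RNA was 2.38, 2.45 and 2.41 RPKM in silvestrol, against 2.32, 2.28 and 2.24 RPKM in DMSO. Every silvestrol library is slightly above every DMSO library, which held for 8.97% of tested genes. TAL1 is not among the tested genes, so these shares come from genes that passed the filter. The ratio of mean footprint to mean RNA level was 0.163 in silvestrol and 0.535 in DMSO. On the log2(RPKM + 0.5) scale the change was -0.94 in footprints, 0.07 in RNA and -1.01 in translational efficiency.

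With no filter on low values, where 17428 genes were tested, the TAL1 change in translational efficiency had an unadjusted p of 0.0140 and a limma adjusted p of 0.640. In that fit its footprint change had a 95% interval of -2.22 to 0.34 and a limma adjusted p of 0.800. The interval in translational efficiency was -1.76 to -0.25. Its SE of 0.34 was smaller than the 0.50 of footprints, although translational efficiency contains the footprint change. The translational efficiency fit estimates the spread over all 10 libraries with 1 weight per assay. That interval is therefore not read as excluding no change. The pseudocount sets much of the size, since the footprint change was -1.41 with 0.1 and -0.67 with 1 in place of 0.5. Both silvestrol values lie below both DMSO values, so the footprint change had to be below 0 with any pseudocount. The footprint change rests on few reads, and its interval with no filter includes no change.

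**Figure D4:**
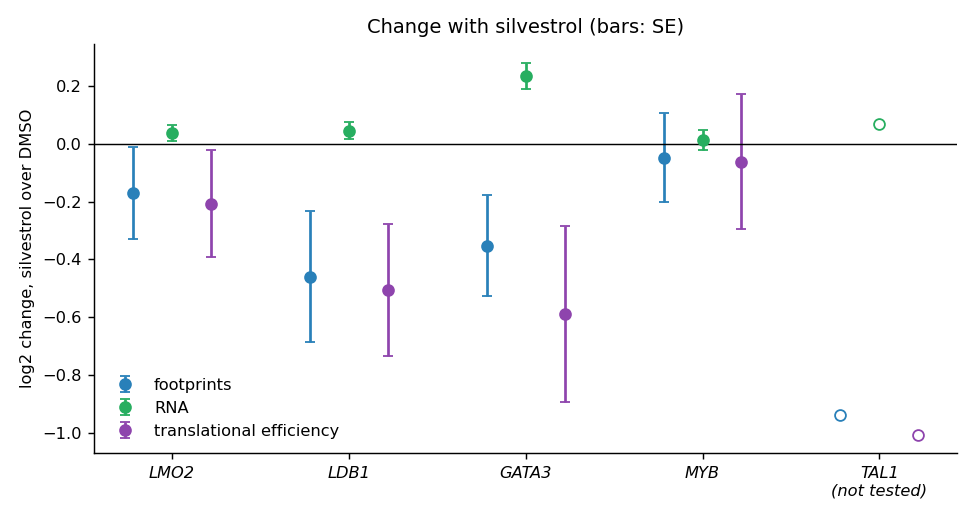
Log2 change, silvestrol over DMSO, in footprints, RNA and translational efficiency for the 4 tested members (filled points, bars are SE) and TAL1 (open points, no test). The largest change of a tested member in RNA is that of GATA3 at 0.24, and TAL1 reaches -1.01 in translational efficiency.

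All 4 tested members had a negative value in footprints and a positive one in RNA, as deposited, and TAL1 did as well. Over all tested genes 31.5% had that pair of signs, 59.5% were below 0 in footprints and 52.5% were above 0 in RNA. The median log2 change over all tested genes was -0.08 in translational efficiency, -0.07 in footprints and 0.00 in RNA. The values of MYB do not keep their sign under median scaling, so the shared signs are those of LMO2, LDB1, GATA3 and TAL1. These are signs of estimates only. The LMO2 groups overlapped in both assays and the LDB1 groups in RNA, and no tested member was called in the main fit.

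**Figure D5:**
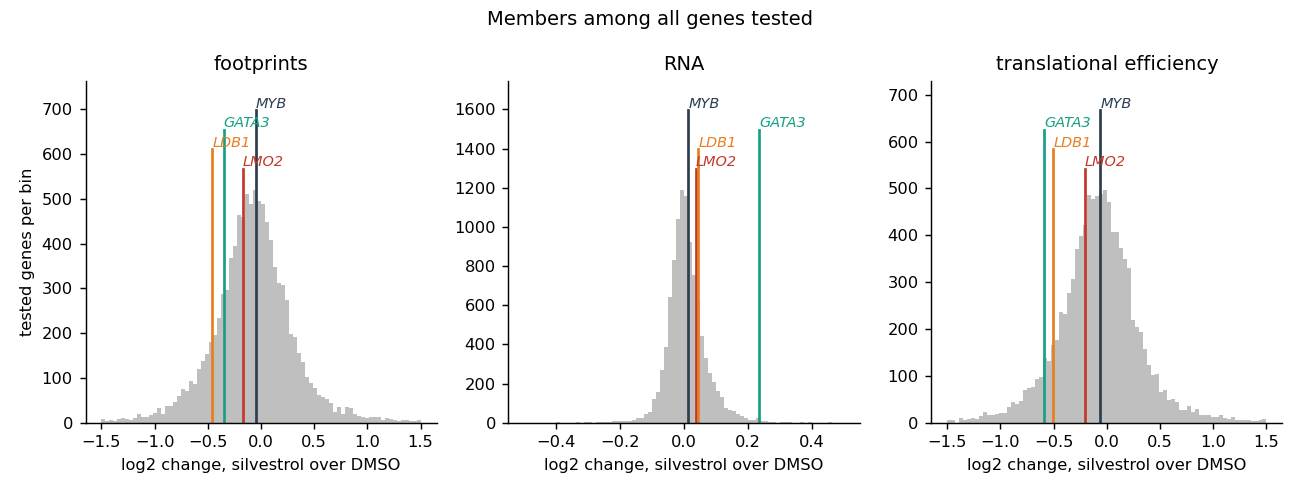
Histograms of the log2 change of all tested genes in footprints, RNA and translational efficiency, with the 4 tested members as vertical lines of arbitrary height. Genes beyond the axes (214, 4 and 219) are not drawn; GATA3 stands in the upper tail of RNA, and LMO2 and MYB stand near the centre of footprints and translational efficiency.

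The 5' UTR motifs were set beside these values. In translational efficiency LMO2, with the repeat, had a log2 change of -0.21 and LDB1, with the G runs, one of -0.50. GATA3, with neither motif, had -0.59 and MYB, also with neither, had -0.06. Among tested genes the median was -0.13 in 417 genes with the repeat (quartiles -0.35 and 0.06), against -0.08 in 8416 without it (quartiles -0.28 and 0.12). It was -0.13 in 966 genes with the G runs (quartiles -0.34 and 0.09), against -0.07 in 7867 without them (quartiles -0.27 and 0.12). LMO2 lies between the quartiles of the genes with the repeat, and MYB between those of the genes without the repeat and of those without the G runs. LDB1 lies below the lower quartile of the genes with the G runs, and GATA3 below that of the genes without the repeat and of those without the G runs.

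The complex has other parts, and most were expressed. Of 18 listed partners and paralogs, 12 were at 1 RPKM or more in RNA and were tested, and 0 of 12 were called in any of the 3 comparisons (limma). At an unadjusted p under 0.05 there were 3 in translational efficiency, 1 in footprints and 2 in RNA. Over all tested genes these shares were 7.38%, 6.98% and 9.23%. The median log2 change of the 12 was -0.33 in translational efficiency, -0.31 in footprints and 0.01 in RNA, against -0.08, -0.07 and 0.00 over all genes. The list holds SSBP1, a mitochondrial DNA-binding protein that is no part of the complex, which was entered by its name and had a change of 0.05.

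The E proteins TCF3 and TCF12, which pair with TAL1 or LYL1, were both present. TCF3 RNA averaged 57.1 ± 1.8 RPKM in silvestrol and 57.7 ± 2.3 RPKM in DMSO (SD, n = 3 each), and TCF12 RNA 21.0 ± 1.0 RPKM and 20.5 ± 0.93 RPKM. The third E protein, TCF4, was at most 0.0005 RPKM on average in either treatment. RUNX1, a factor that joins the TAL1 complex at T-ALL enhancers, had a change of -0.48 in translational efficiency (unadjusted p = 0.0295, limma adjusted p = 0.594).

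SSBP2, SSBP3 and SSBP4 bind LDB1 and protect it from degradation. SSBP3 and SSBP4 had RNA levels of 38.7 and 97.3 RPKM in silvestrol and 37.0 and 94.9 RPKM in DMSO, SSBP3 below and SSBP4 above LDB1, but few footprints. The ratio of footprints to RNA was 0.10 in silvestrol and 0.144 in DMSO for SSBP3, and 0.159 in silvestrol and 0.202 in DMSO for SSBP4. Under DMSO these lie at percentiles 2.73 and 4.26 of tested genes, below LMO2 and LDB1. The coding share of the exons was not taken into account in these places. SSBP2, at 5.64 RPKM in silvestrol RNA and 5.90 RPKM in DMSO RNA, had a change in translational efficiency of -0.66 (unadjusted p = 0.0384, limma adjusted p = 0.641), and SSBP3 of -0.47 (unadjusted p = 0.0454, limma adjusted p = 0.669).

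Of the paralogs, LMO4 averaged 2.67 ± 0.11 RPKM in silvestrol RNA and 2.48 ± 0.082 RPKM in DMSO RNA (SD, n = 3 each), so LMO2 was the LMO gene with by far the highest level. LMO3 and LDB2 were listed at 0 on average in RNA, GATA1 and GATA2 averaged under 0.02 RPKM, and TAL2 and TLX2 under 0.3 RPKM. GATA3 was thus the GATA factor of the 3 that was expressed. MYBL2, a cell cycle paralog of MYB, was far above it in RNA at 213 ± 5.8 RPKM in silvestrol and 214 ± 4.5 RPKM in DMSO, with footprints of 79.3 ± 6.3 RPKM and 86.8 ± 0.85 RPKM (SD, n = 2 each). MYBL1 averaged 3.83 RPKM in silvestrol RNA and 4.01 RPKM in DMSO RNA. None of the 3 tested paralogs, LMO4, MYBL1 and MYBL2, was called (0 at an unadjusted p under 0.05 in any comparison).

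Other subtype factors were nearly absent. Of 17 listed, 16 had a mean RNA level under 0.3 RPKM, among them the NKX2 genes, the HOXA genes, MEF2C, SPI1, OLIG2 and MYCN. The 1 expressed gene of the list, BCL11B, a zinc finger factor of T-cell commitment, rose in RNA (log2 change 0.28, limma adjusted p = 0.0093) and fell in translational efficiency (by 1.26, limma adjusted p = 0.0415). The 1 other listed call was in RNA, where MYC, a reported MYB target, rose (log2 change 0.40, limma adjusted p = 0.0451). None of these 3 calls held under every alternative. With no filter the limma adjusted p was 0.103 for BCL11B in RNA, 0.107 for BCL11B in translational efficiency and 0.187 for MYC in RNA. The BCL11B call in translational efficiency was lost without any 1 of the 4 footprint libraries (limma adjusted p = 0.0607 to 0.196), without DMSO RNA replicate 3 (0.0674), without silvestrol RNA replicate 2 (0.0520) and with median scaling (0.0664). Its RNA call was lost without DMSO RNA replicate 1 or 3 or silvestrol RNA replicate 3 (0.0603 to 0.0649). The MYC call was lost with median scaling (0.0811) and quantile normalization (0.0511), and without any 1 RNA library other than silvestrol replicate 1 (0.0641 to 0.196). The sign of the 3 values was the same in all of these settings.

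Of 9 reported targets of the LMO2 or TAL1 complex, 5 were tested and 0 called in any comparison. At an unadjusted p under 0.05 there was 1 in each comparison. Over all tested genes this share was 7.38% in translational efficiency, 6.98% in footprints and 9.23% in RNA. In translational efficiency the log2 changes of the 5 had a median of -0.50. TRIB2, a pseudokinase of that list, had a change of -0.52 (unadjusted p = 0.0264, limma adjusted p = 0.579). The progenitor receptor KIT and ALDH1A2, both reported targets, averaged under 0.3 RPKM in RNA, as did HHEX. Of 11 genes of the MYB list 10 were tested, with 1 rise in RNA (MYC), no other call and a median of -0.19 in translational efficiency. At an unadjusted p under 0.05 there were 2 of the 10 in translational efficiency, 2 in footprints and 5 in RNA. The short lists were chosen with earlier results of these data known, and their counts were not tested against the shares over all genes. Of 13 progenitor and commitment genes 7 were tested and 0 called (at an unadjusted p under 0.05, 1 in translational efficiency, 1 in footprints and 0 in RNA), with a median of -0.19.

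Genes with the most similar profile were found by Pearson's r of log2(RPKM + 0.5) over the 10 libraries after the mean of each assay was subtracted, as a description. For LMO2 these were PDAP1 (r = 0.987), CZIB (0.986) and CENPBD1P (0.981), and 305 of 10296 genes had r above 0.9. For MYB they included OXCT1-AS1 (0.967) and CLIP1 (0.964), with 72 genes above 0.9. With footprints varying most, r follows mainly the 4 footprint libraries.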

How the data were processed

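The authors deposited 1 RPKM value per gene ID for each of 10 libraries (55889 IDs), as the file headers show. The submitters' processing notes name STAR and the build hg19, with no version or role. Annotation, strand and the handling of multi-mapped reads: not given in the sources used here. Symbols matched 49395 IDs in a gene table and 267 more in GENCODE release 29, which is on another build and gave only names, lengths and transcript sequences. Depth was estimated from the step between low values times exon length: 2.38 and 2.03 M reads in silvestrol and 2.27 and 1.66 M in DMSO footprints, and 126.7 to 178.1 M in silvestrol and 160.5 to 216.7 M in DMSO RNA. Of low values, 90.3% to 92.9% lay within 0.05 of a whole read. These totals are rough, so no count model was used.

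Genes with a mean of at least 1 RPKM in both assays were tested on log2(RPKM + 0.5) with limma 3.58.1 in R 4.3.3 (trend and robust, two-sided, Benjamini-Hochberg adjustment over all genes tested). Translational efficiency is the interaction of assay and treatment over 10 libraries with 1 weight per assay. Footprints and RNA were also fitted alone. An earlier account of these data used 1 spread for both assays; that fit is an alternative here. Members and lists were chosen with earlier results of these data known. Besides members, genes are named where a listed gene was called, as paralogs, or by likeness to LMO2 or MYB (1 gene so chosen is not reported here); other listed genes were named after their values were seen. The fits were tested on simulated data.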

Additional observations from a re-analysis of the deposited data

How the results depend on the processing

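No alternative gave a call for LMO2, LDB1 or MYB, and for GATA3 the call depended on the setting in RNA alone. The replicate numbers showed no clear pairing of the libraries. Correlations of same-numbered deviations were 0.0422, -0.327 and 0.150 in RNA and -0.0332 in footprints. Only 1 of 6 RNA libraries was closest to its own number. So few libraries cannot settle whether they were made in pairs. With a replicate block the genes called were 14 in translational efficiency, 1 in footprints and 57 in RNA, against 11, 5 and 29 without it. Under the replicate block GATA3 RNA was called (adjusted p = 0.0352) and BCL11B was not called in translational efficiency (0.0904). Over its alternatives the limma adjusted p of GATA3 in RNA ran between 0.0317 and 0.261. The count of genes called in translational efficiency was 545 with 1 spread for both assays and 8 to 44 with 1 library left out. In footprints it was 2 with a pseudocount of 0.1, 2 with no filter, 2 with a filter of 5 RPKM, 8 with quantile normalization, 9 in the joint fit and 0 to 0 with 1 library left out. In RNA it was 0 with no filter, 48 in the joint fit and 0 to 35 with 1 library left out. MYB changed sign with median scaling (0.0021 in translational efficiency, 0.0027 in footprints), without DMSO footprint replicate 2 (0.0951 and 0.109), without silvestrol footprint replicate 1 (0.0015 in footprints) and without silvestrol RNA replicate 2 (-0.0148 in RNA). With 1 library left out its range was -0.219 to 0.0951 in translational efficiency, -0.206 to 0.109 in footprints and -0.0148 to 0.0494 in RNA. The cause of these shifts was not tested. With 1 library left out, the other library of its group is assumed to vary like the rest. Footprint depth limits TAL1 and LYL1.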
